A study of Rattus norvegicus with 12 samples.

Results

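Gene expression was compared between osteoclast cultures grown from the bone marrow of spinal cord injured rats whose muscle was stimulated electrically (SCI+FES) and osteoclast cultures from sham-operated rats. The comparison takes 4 of the 12 arrays of the series, the SCI+FES osteoclast duplicates and the sham osteoclast duplicates, chosen by their titles. All rats were male Wistar-Hannover rats. In the SCI+FES animals the spinal cord was transected, stimulators were implanted in week 14 after the injury, and functional electrical stimulation (FES) began in week 16. It was given on 7 days, each for 60 minutes, at 40 Hz and 1.5 V, with 2 s of contraction to every 18 s without. Sham animals had the same spinal surgery without transection, and their marrow was taken 12 to 14 weeks later. The labels give both cultures as day 3, name no implant for the sham animals and leave the collection week of the SCI+FES animals unclear. Injury, stimulation, implant surgery and time after surgery therefore all differ between the groups and cannot be told apart. For each group, RNA of 3 to 4 animals was combined into 1 pool and hybridised to 2 Illumina arrays. The duplicates measure array error only, there is n = 1 pool per group, and no test of the treatment is possible.

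Osteoclasts are multinucleated cells that form by fusion of precursors of the monocyte and macrophage lineage, driven by M-CSF and by RANKL acting through its receptor RANK. They dissolve bone mineral with acid from a vacuolar proton pump and digest its collagen with cathepsin K. Paralysis after spinal cord injury removes muscle load from bone and is followed by bone loss, and marrow cultures are used to ask how readily precursors form osteoclasts afterwards. Interferons restrain osteoclast formation in mice, while several inflammatory cytokines promote it.

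Of 21645 genes on the array, 7640 were detected, which means that both duplicates of the SCI+FES pool or both of the sham pool had a detection p no higher than 0.01. The raw signal was dimmer for SCI+FES, with an upper quartile of 84.9 and 86.3 against 143.4 and 146.9 for sham, and 33.7% to 33.9% against 34.7% to 34.8% of probes were detected. Quantile normalization over the 12 arrays sets these distributions equal, and the part of the dimmer arrays in the results was not tested. Duplicates correlated across detected genes at r = 0.996 for SCI+FES and 0.997 for sham, and the pool means at r = 0.966 (genes are not independent replicates). Values below are normalized log2 intensities, and each difference is SCI+FES minus sham with the standard error (SE) over the 2 + 2 arrays. The offset of 50 added before the logarithm understates differences of dim genes.

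A gene counts below as higher or lower when its pool means differed by 2-fold or more and the arrays of the pools did not overlap. By this rule 133 detected genes were higher in SCI+FES (1.74%) and 185 were lower (2.42%), which together is 4.16% of the 7640. At least 4-fold differences were found for 21 higher and 20 lower genes. The bulk of the genes lay close together: the middle 50% of differences ran from -0.24 to 0.24, the median was 0.01, and no gene differed 2-fold between duplicates of either pool. When arrays were aligned on a common median over all probes instead, the split was 49 higher and 685 lower, with the median detected gene at -0.41, so changes under that scaling are given relative to that shift. The scatter of pool means shows the 318 genes on either side of the diagonal.

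**Figure D1:**
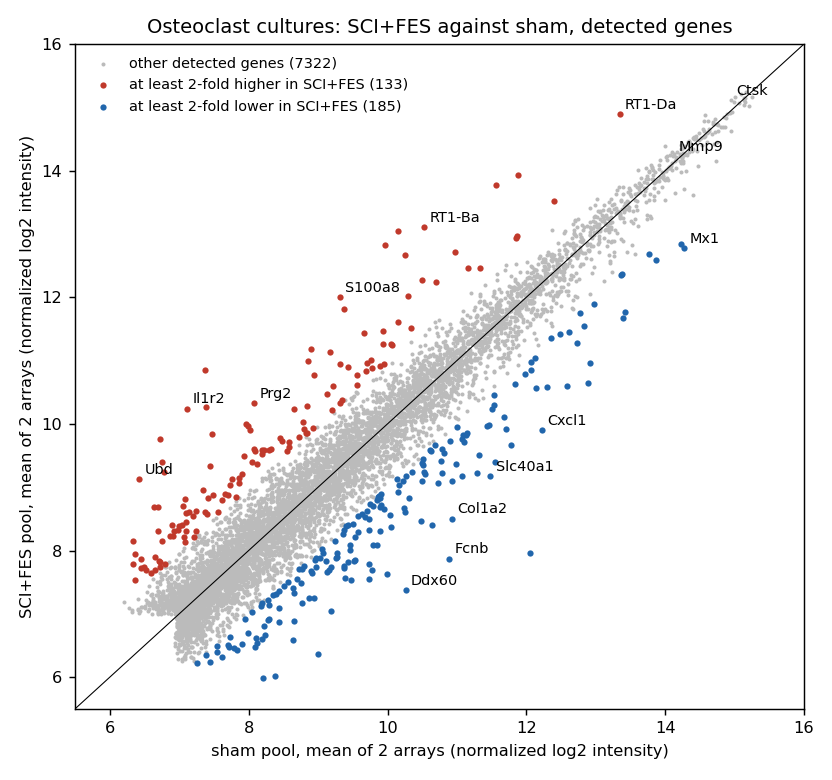
Each point is 1 detected gene, with the sham pool on the x axis and the SCI+FES pool on the y axis, both as the mean normalized log2 intensity of 2 arrays. Red points are the 133 genes at least 2-fold higher and blue points the 185 at least 2-fold lower in SCI+FES. Ctsk and Mmp9 lie near the diagonal at the bright end.

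Ctsk, Mmp9 and some other osteoclast genes were expressed at nearly the sham level in SCI+FES, while most of the list leaned lower. Of 30 detected genes of osteoclast differentiation and resorption, 0 were higher and 4 were lower, beside 1.74% and 2.42% of all detected genes. A difference above 0 was found in 7 of the 30, beside 50.7% of all detected genes. The median difference was -0.26 against 0.01 over all detected genes. Cathepsin K (Ctsk), the collagen-degrading protease of the resorption pit, read 15.14 and 15.08 on the SCI+FES arrays and 14.95 and 14.95 on the sham arrays, a difference of 0.16 ± 0.03. The matrix metalloproteinase Mmp9 read 14.30 and 14.16 against 14.22 and 14.01, and there the arrays of the pools overlapped. Atp6v0d2, a proton pump subunit needed for precursor fusion in mice, differed by -0.18 ± 0.02, and Tcirg1, the osteoclast form of a large pump subunit, by -0.30 ± 0.07. Clcn7, the chloride transporter beside the pump, differed by 0.01 ± 0.06 and Tnfrsf11a, which encodes RANK, by 0.03 ± 0.17. All 6 of these genes differed by less than 2-fold. The labelled cell type was checked on 8 osteoclast markers (Ctsk, Mmp9, Atp6v0d2, Car2, Calcr, Oscar, Tm7sf4 and Tnfrsf11a), of which all were detected on both sham arrays and 7 on both SCI+FES arrays. Calcr, the calcitonin receptor of mature osteoclasts, was close to the detection limit and was detected on 1 of the 2 SCI+FES arrays.

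The other osteoclast genes that differed leaned toward lower levels in SCI+FES. Jdp2, a transcription factor of the AP-1 family that takes part in osteoclast differentiation in mice, read 9.42 and 9.31 in SCI+FES and 11.04 and 10.92 in sham, a 3.06-fold lower level. Itgav, the alpha V chain of the integrin by which osteoclasts attach to bone, read 8.62 and 8.73 against 10.19 and 10.30, 2.96-fold lower. In both genes the arrays of the pools lay far apart. Sqstm1 (p62), a scaffold of RANK signalling, was lower by -1.44 ± 0.10, and its other detected probes gave -0.97 and -0.78, both short of 2-fold. Traf6, the adaptor that RANK recruits, was lower by -1.08 ± 0.08, and without array 1 of each pool the arrays left gave a difference under 2-fold. Carbonic anhydrase 2 (Car2), the source of protons for the pump, differed by -0.86 ± 0.09, the co-stimulatory receptor Oscar by -0.53 ± 0.02, the membrane protease Mmp14 by -0.53 ± 0.01 and the fusion protein gene Tm7sf4 by -0.47 ± 0.07, none of them 2-fold. Acp5, Nfatc1, Itgb3 and Csf1r were not analysed here for lack of a matched probe. Osteoclast-derived coupling factors, which act on bone-forming cells, had 1 lower gene of 7 detected, beside 2.42% lower among all detected genes. It was Sphk1, a sphingosine kinase, at -1.37 ± 0.16. Cathepsin and lysosomal membrane genes had 0 higher and 0 lower of 31.

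**Figure D2:**
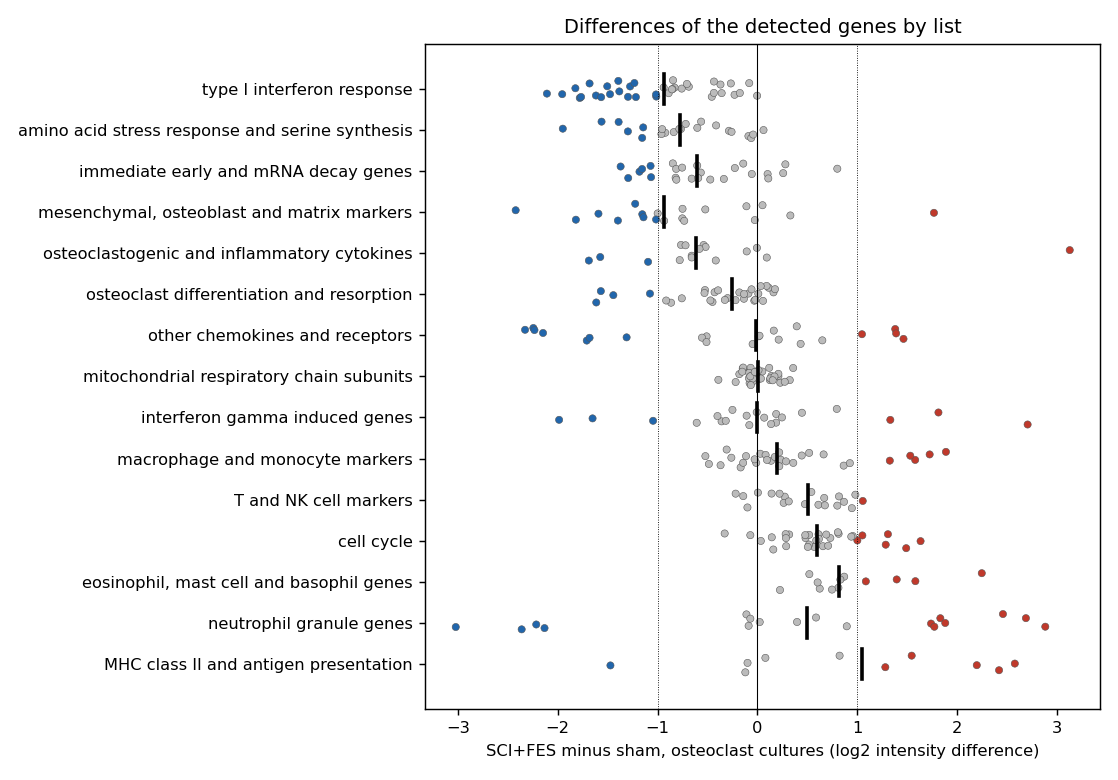
Each point is a detected gene of the list named on the y axis, and the x axis is its SCI+FES minus sham difference in log2 intensity. Red and blue points pass the 2-fold rule, dotted lines mark 2-fold, and the black bar is the list median. Type I interferon genes lie at or below 0 throughout, MHC class II genes reach 2.58, and respiratory chain subunits stay near 0.

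Genes induced by type I interferon were lower in SCI+FES cultures than in sham cultures as a group. Of 37 detected members, 18 were lower and 0 higher, beside 2.42% lower among all detected genes. A difference above 0 was found in 0 of the 37, beside 50.7% of all detected genes. The median was -0.94. Mx1, an antiviral GTPase and one of the brightest members, read 12.75 and 12.80 on the SCI+FES arrays and 14.35 and 14.21 on the sham arrays, 2.84-fold lower. The interferon regulatory factor Irf7 read 12.91 and 12.77 against 14.27 and 14.20, 2.63-fold lower. For both genes the sham arrays stood more than 1 log2 unit above the SCI+FES arrays, with no overlap. The largest differences were those of Cmpk2, a nucleotide kinase (-2.11 ± 0.03), Ifitm3, a membrane protein that blocks virus entry (-1.96 ± 0.02), and Zbp1, a nucleic acid sensor (-1.82 ± 0.06). Ifit3 was lower by -1.77 ± 0.03 and the RNA sensor Ifih1 by -1.68 ± 0.06. Ifit1 was lower by -1.78 ± 0.06 on the brightest probe, while a second detected probe of that gene gave 0.44, so the Ifit1 value is uncertain. Irf9, a subunit of the factor that binds interferon response elements, read near the sham level with -0.003 and was named after its value was seen. On the authors' own rescaled values Irf7 gave -0.98, just short of 2-fold. Relative to the median gene, the list stood at -0.94 with quantile normalization and at -0.996 with the common median.

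The promoters of these genes were searched for the core of the interferon-stimulated response element (GAAA, any 2 bases, GAAA) on both strands of the window from 250 bases before to 50 bases after each RefSeq start (build GRCr8). It was found in 10 of the 14 promoters available for lower members (71.4%), in 16 of 26 for detected members (61.5%), and in 1034 of all 27457 promoters (3.77%). Such a match is a description of the sequence and not evidence of use. It was also found in 12 of 18 promoters of the detected interferon gamma list below (66.7%), and the windows of Cmpk2 and Mx1 held no match. The windows of 3 lower genes that hold it are shown as examples, chosen with that known: Ifitm3 (chr1:205541709-205542008, minus strand), Ifit3 (chr1:241527076-241527375, plus strand) and, from the interferon gamma list, the chemokine Cxcl10 (chr14:15988816-15989115, plus strand). They run 5′ to 3′ on the gene's strand, with the match in capitals. In Ifit3 the capitals are the reverse complement of the core.
Ifitm3: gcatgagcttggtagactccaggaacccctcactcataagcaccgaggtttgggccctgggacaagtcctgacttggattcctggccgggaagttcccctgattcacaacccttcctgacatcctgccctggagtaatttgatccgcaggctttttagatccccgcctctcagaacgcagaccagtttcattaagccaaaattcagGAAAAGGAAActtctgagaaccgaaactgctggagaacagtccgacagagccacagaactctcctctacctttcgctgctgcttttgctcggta
Ifit3: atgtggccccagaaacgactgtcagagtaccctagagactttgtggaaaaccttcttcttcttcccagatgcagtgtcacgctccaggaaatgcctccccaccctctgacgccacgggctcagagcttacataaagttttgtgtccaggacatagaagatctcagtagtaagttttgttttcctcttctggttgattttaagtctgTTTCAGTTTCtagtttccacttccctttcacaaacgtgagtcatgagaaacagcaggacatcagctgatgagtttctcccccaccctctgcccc
Cxcl10: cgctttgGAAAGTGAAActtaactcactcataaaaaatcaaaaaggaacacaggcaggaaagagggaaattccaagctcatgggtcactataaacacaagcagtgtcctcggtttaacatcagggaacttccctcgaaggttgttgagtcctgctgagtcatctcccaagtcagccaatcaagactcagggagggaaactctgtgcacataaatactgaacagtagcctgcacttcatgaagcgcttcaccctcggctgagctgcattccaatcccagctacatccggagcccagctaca

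Genes better known for induction by interferon gamma did not share 1 direction. Of 21 detected members 3 were higher and 3 lower, beside 1.74% and 2.42% of all detected genes, with a median of -0.01. Ubd, a ubiquitin-like modifier, read 9.11 and 9.15 in SCI+FES and 6.52 and 6.33 in sham, where neither array detected it, so the level was at least 4.59-fold higher. Ciita, the master activator of MHC class II transcription, was likewise not detected in sham and at least 2.32-fold higher. Among the chemokine ligands of the receptor Cxcr3, Cxcl9 was higher by 1.33 ± 0.12, whereas Cxcl10 was lower, at 11.76 and 11.79 against 13.43 and 13.42, and Cxcl11 was lower by -1.99 ± 0.06. The 3 ligands therefore differed in direction with no overlap of arrays in any of them. The guanylate binding protein Gbp5 was not detected in SCI+FES and at least 1.47-fold lower, a call that quantile normalization over the 6 osteoclast arrays and the removal of SCI+FES array 2 both took below 2-fold. With the common median Cxcl9 differed by 0.82, short of 2-fold, and stood 1.23 above the median gene.

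Chemokines and their receptors differed in both directions. Of 22 detected chemokines and receptors, 7 were lower and 4 higher, beside 2.42% and 1.74% of all detected genes. The median was -0.02. Cxcl1, which attracts neutrophils, read 9.85 and 9.95 in SCI+FES against 12.21 and 12.25 in sham, 5.02-fold lower, and its relative Cxcl2 was 4.43-fold lower. Ccl4, which attracts monocytes, read 10.64 and 10.64 against 12.84 and 12.94, 4.74-fold lower. The duplicates of these genes lay close together and the pools more than 2 log2 units apart. Ccl3, which promotes osteoclast formation in culture, was lower by -1.71 ± 0.05, the B cell attractant Cxcl13 by -1.68 ± 0.15 and the atypical chemokine receptor Ccrl2 by -2.23 ± 0.07. Ccl22, made by macrophages and dendritic cells, was in contrast higher by 1.39 ± 0.05. The other higher genes of the list were Ccl6 at 1.46, Ccl17 at 1.38 and Cxcr2, which was not detected in sham and at least 1.70-fold higher, and the remaining lower gene, the receptor Cxcr4, was at -1.31.

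The cytokine list carried 1 large increase against a generally lower level. Il1r2, the decoy receptor that binds interleukin 1 without signalling, read 10.27 and 10.21 in SCI+FES and 7.09 and 7.14 in sham, 8.74-fold higher. The 2 pools lay more than 3 log2 units apart. Of the other 15 detected cytokine genes 3 were lower and 0 higher: Ptgs2, the inducible enzyme of prostaglandin synthesis, by -1.69 ± 0.06, Nfkbiz, a nuclear regulator of NF-kappa B targets that was not detected in SCI+FES, at least 2.39-fold, and the anti-inflammatory cytokine Il10, by -1.09 ± 0.13. Over all detected genes 2.42% were lower and 1.74% higher. The list median was -0.62. The osteoclast-promoting cytokines Il1a and Il1b differed less, by -0.77 ± 0.01 and -0.54 ± 0.07, and Tnf was not detected in SCI+FES. Osteopontin (Spp1), a secreted protein by which osteoclasts adhere, differed by -0.58 ± 0.07, also under 2-fold. Il1rn, the soluble antagonist of interleukin 1, read 10.30 and 10.38 against 10.34 and 10.35, with overlapping arrays. Il10 fell short of 2-fold once SCI+FES array 1 was left out.

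Some stress-induced and immediate early transcripts were lower, 6 of 22 and 6 of 25 detected, beside 2.42% of all detected genes. In the list of amino acid stress response and serine synthesis genes, 6 of 22 detected were lower and 0 higher, around a median of -0.77. Slc7a5, the large neutral amino acid transporter, read 7.63 and 7.43 against 9.48 and 9.48, 3.86-fold lower. Trib3, a pseudokinase induced by this response, was not detected in SCI+FES and at least 2.75-fold lower, and the transcription factors Atf3 and Ddit3 (CHOP) were lower by -1.39 ± 0.08 and -1.15 ± 0.07. Asparagine synthetase (Asns) was lower by -1.14 ± 0.04, and the arginine transporter Slc7a3, not detected in SCI+FES, by at least 1.55-fold. In each of these 6 genes both sham arrays lay above both SCI+FES arrays. The core of the amino acid response element, TGATGNAAT, was in 0 of 19 promoters of the detected list and in 288 of 27457 (1.05%), which says only that these letters are not in this window. Among immediate early and mRNA decay genes 6 of 25 were lower and 0 higher, and the median was -0.60. Fos, the AP-1 subunit that is essential for osteoclast formation in mice, read 9.48 and 9.34 against 10.76 and 10.80, 2.58-fold lower. Dusp1, a phosphatase that ends MAP kinase signals, Zfp36, which speeds decay of cytokine mRNAs, and the transcription factor Klf4 were lower by -1.29 ± 0.04, -1.18 ± 0.10 and -1.15 ± 0.07. Ccn1 at -1.07 and Rgs1 at -1.06 were near the threshold, and each missed it when sham array 2 was left out.

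**Figure D3:**
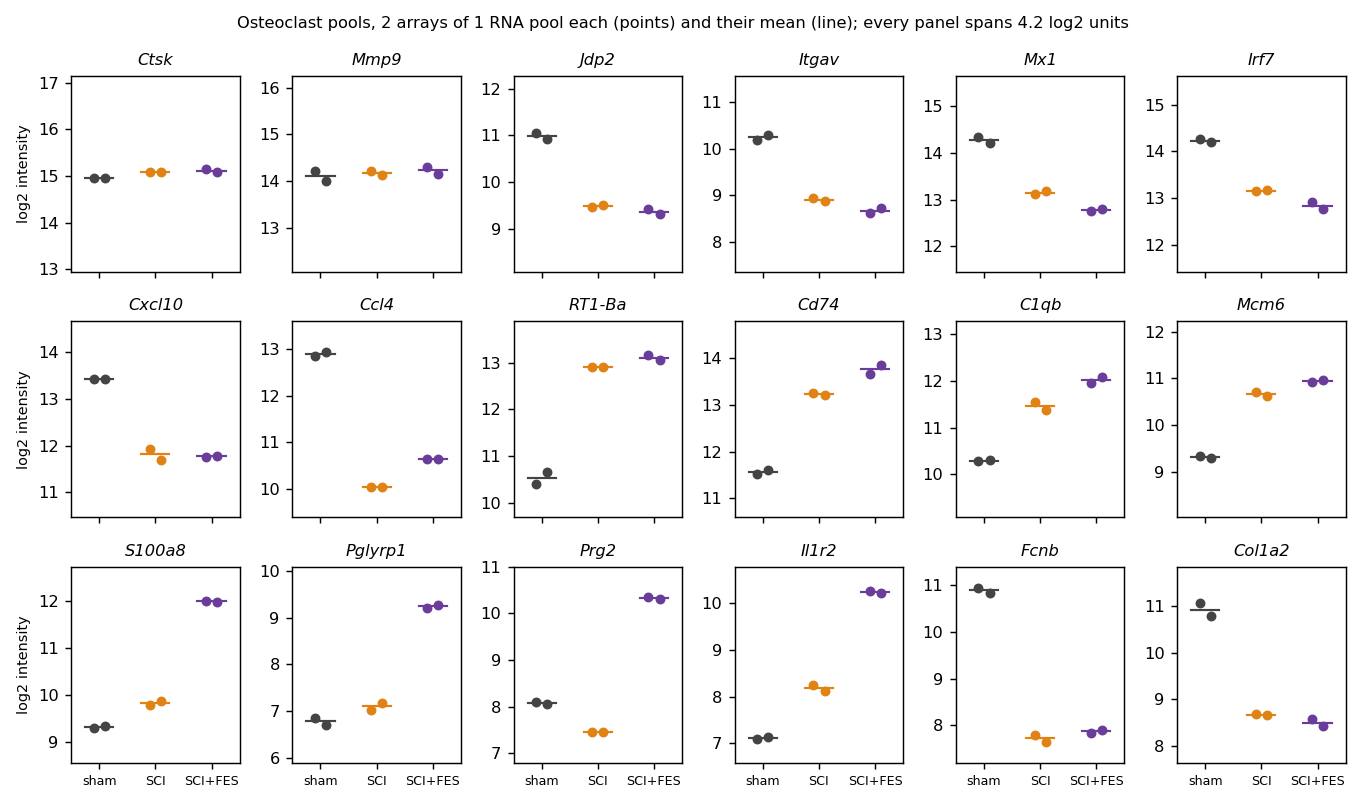
Points are the 2 arrays of each osteoclast pool (sham, SCI and SCI+FES) and lines their means, on a y axis of normalized log2 intensity that spans the same range in every panel. Duplicates lie close together. S100a8, Pglyrp1 and Prg2 stand high in the SCI+FES pool only among these 3 pools, while Mx1, Cxcl10, Fcnb and Col1a2 are high in the sham pool.

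MHC class II genes, whose products present peptides to T helper cells, were the list with the highest median, 1.05 (0.74 with genes not detected in 1 pool at their bound). Of 10 detected members 5 were higher and 1 lower, beside 1.74% higher among all detected genes. RT1-Ba read 13.16 and 13.05 in SCI+FES and 10.41 and 10.65 in sham, 5.97-fold higher. The invariant chain Cd74, which escorts class II molecules, read 13.67 and 13.86 against 11.53 and 11.61, 4.59-fold higher. RT1-Db1 and RT1-Da were higher by 2.42 ± 0.16 and 1.54 ± 0.03, and RT1-DOb, not detected in sham, at least 1.74-fold. RT1 genes are closely related copies, so the level of a single member is uncertain. Every SCI+FES array was above every sham array for these 5 genes. The co-stimulatory ligand Cd86, also on the list, was the lower one, at -1.47 ± 0.10. The class II promoter Y box, CTGATTGG on either strand, was present in 4 of 9 promoters of detected members (44.4%) and in 975 of 27457 (3.55%). It is shown in capitals in the RT1-Ba promoter (chr20:4576807-4577106, plus strand, RefSeq on GRCr8), since RT1-Ba is the class II gene with the largest difference.
RT1-Ba: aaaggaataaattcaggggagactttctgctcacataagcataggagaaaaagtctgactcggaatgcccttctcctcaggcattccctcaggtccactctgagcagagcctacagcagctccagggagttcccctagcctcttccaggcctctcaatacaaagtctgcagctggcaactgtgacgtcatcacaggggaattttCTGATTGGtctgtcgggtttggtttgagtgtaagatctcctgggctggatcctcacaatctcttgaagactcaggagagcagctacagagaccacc

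Macrophage genes were mixed, with the complement C1q genes and 2 surface receptors higher and Cd68 and Cd14 near the sham level. Of 30 detected macrophage and monocyte markers 5 were higher and 0 lower, beside 1.74% and 2.42% of all detected genes. The list median was 0.20, and it was 0.22 above the median gene with the common median. C1qb, a chain of the first complement component, read 11.95 and 12.08 in SCI+FES and 10.28 and 10.30 in sham, 3.31-fold higher, with C1qc at 1.53 ± 0.07 and C1qa at 1.33 ± 0.04. The inhibitory IgG receptor Fcgr2b was higher by 1.89 ± 0.03 and Adgre1, a surface antigen of mature macrophages, by 1.58 ± 0.09. Cd68 read 14.73 and 14.65 against 14.85 and 14.87, Cd14 differed by -0.14 ± 0.03 and Tyrobp (DAP12), an adaptor that osteoclasts also need, by -0.03 ± 0.14. Both bright markers, Cd68 and Cd14, were thus within 0.2 log2 units of sham. In the dendritic cell list, 3 of 6 detected genes were higher and 1 lower. The galactose lectin Mgl1 was 5.41-fold higher, Ccl22 was given above, the transcription factor Batf3 was not detected in sham and at least 1.91-fold higher, and the lipid-presenting molecule Cd1d1 was lower by -1.70 ± 0.01. Because the arrays measure a whole culture, fewer cells of a type and less RNA per cell cannot be told apart here or below.

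Some neutrophil granule genes were higher, some lower, and others near the sham level. Of 18 detected, 7 were higher and 4 lower, beside 1.74% and 2.42% of all detected genes. The calcium-binding protein S100a8 read 12.01 and 11.99 in SCI+FES and 9.28 and 9.34 in sham, 6.45-fold higher. Pglyrp1, which binds bacterial peptidoglycan, read 9.21 and 9.27 and was not detected in sham, at least 4.95-fold higher. Stfa2, a cysteine protease inhibitor, was 7.38-fold higher, and 2 predicted stefin A2 relatives, LOC684525 and RGD1560676, were 11.1-fold and 7.30-fold higher. Stefin genes are near-identical copies and their probes may share transcripts, so these 3 values are not independent. Ficolin B (Fcnb), a lectin of myeloid cells, went the other way, at 7.83 and 7.91 against 10.95 and 10.84, 8.12-fold lower. The defensin genes Np4 and RatNP-3b were not detected in SCI+FES and at least 2.63-fold and 2.33-fold lower, and Defa5 was lower by -2.13 ± 0.18. They too belong to a family of similar sequences. The remaining higher members, Chi3l1, Retnlg, Slpi and Mmp8, lay between 1.74 and 1.88. S100a9, usually the partner of S100a8, was not detected on any of the 4 arrays. The neutrophil marker Mpo, close to the detection limit, read 7.02 and 7.00 against 6.91 and 7.06, with overlapping arrays. Camp and Cybb were near sham at -0.09 and -0.07, and were named after their values were seen.

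Some genes of eosinophils and mast cells were higher, with 4 of 12 detected past 2-fold, beside 1.74% higher among all detected genes. The median was 0.82 (0.51 with genes not detected in 1 pool at their bound). All 12 lay above 0, but at least 8 of them were not detected in sham and passed the filter through SCI+FES. This sign count is therefore not independent of the filter. The eosinophil major basic protein Prg2 read 10.35 and 10.31 in SCI+FES and 8.11 and 8.05 in sham, 4.75-fold higher. The mast cell protease Mcpt10 and the eosinophil ribonuclease Rnase3 were not detected in sham and at least 2.01-fold and 2.32-fold higher. Prg3 was higher by 1.09 ± 0.26, and without SCI+FES array 1 or without sham array 2 its call was lost. RGD1565970, a predicted relative of mast cell protease 8, read 9.71 and 9.80 and was not detected in sham, at least 7.08-fold higher. The summed linear intensity of the 27 matched eosinophil, mast cell and basophil genes was 4606 and 4677 on the SCI+FES arrays against 2681 and 2658 on the sham arrays, and 12 and 13 against 4 and 1 of them were detected. The sum over the 28 neutrophil genes was 31361 and 31003 against 16299 and 16465, with 16 and 18 against 16 and 16 of them detected. Linear sums weigh bright members most, so a sum does not stand for its whole list, here or below. Among these members were Prg2, S100a8 and Stfa2, the last at 13.06 and 13.02 against 10.09 and 10.22. Epx was detected in SCI+FES only of these 2 pools, while Cpa3 and Fcer1a, which define mast cells, were not detected on any of the 4 arrays. The part of such cells in the other results was not tested.

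T cell genes were detected more often in SCI+FES than in sham, at low levels. Of 35 matched T and NK cell markers, 21 and 22 were detected on the SCI+FES arrays and 12 and 13 on the sham arrays, with summed intensities of 7803 and 7784 against 6089 and 6392. Cd3d, a chain of the T cell receptor complex, read 7.59 and 7.72 against 6.54 and 6.66, was not detected in sham, and was at least 1.65-fold higher. By its fitted difference of 1.05, and not by that bound, Cd3d was the 1 of 20 detected members past 2-fold. Of all detected genes 1.74% were higher. The call was lost under several settings, among them quantile normalization over the 6 osteoclast arrays. The list median was 0.51, and 0.28 with genes not detected in 1 pool at their bound, which were at least 7 of the 20. B cell markers had 3 detected members, none past 2-fold, and megakaryocyte and endothelial markers 4 each, also none. The part of T cells in the differences of interferon gamma, chemokine and class II genes was not tested.

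Several replication helicase genes were higher in SCI+FES. Of 33 detected cell cycle genes, 6 were higher and 0 lower, beside 1.74% and 2.42% of all detected genes. A difference above 0 was found in 31 of the 33, beside 50.7% of all detected genes, and the median was 0.59. The helicase subunit Mcm6, part of the complex that opens replication origins, read 10.93 and 10.96 against 9.34 and 9.29, 3.10-fold higher. Mcm2, Mcm3 and Mcm7 of the same complex were higher by 1.49 ± 0.11, 1.31 ± 0.10 and 1.28 ± 0.11. Mcm4 and Mcm5, also of this complex, were short of 2-fold, at 0.28 ± 0.06 and 0.81 ± 0.15. Both were named after their values were seen. The mitotic kinases Aurkb and Cdk1 were at 1.05 ± 0.08 and 1.001 ± 0.17, at the edge of the rule, and lost the call without sham array 1. Relative to the median gene with the common median, Mcm6, Mcm2, Mcm3 and Mcm7 stood at 1.55, 1.40, 1.25 and 1.16, Aurkb and Cdk1 at 0.91 and 0.86, and the list median at 0.57. Not taken relative to that gene, Mcm6 was past 2-fold at 1.14. Mcm2, Mcm3 and Mcm7 then fell short at 0.998, 0.845 and 0.76, as did Aurkb and Cdk1 at 0.50 and 0.46. A binding site of E2F factors (TTTGGCGC or TTTCCCGC, either strand) was found in 6 of 23 promoters of detected members (26.1%) and in 420 of 27457 (1.53%). The Mcm6 promoter, shown because Mcm6 has the largest difference of the list, lies at chr13:42404303-42404602 on the minus strand (RefSeq, GRCr8), with the match in capitals.
Mcm6: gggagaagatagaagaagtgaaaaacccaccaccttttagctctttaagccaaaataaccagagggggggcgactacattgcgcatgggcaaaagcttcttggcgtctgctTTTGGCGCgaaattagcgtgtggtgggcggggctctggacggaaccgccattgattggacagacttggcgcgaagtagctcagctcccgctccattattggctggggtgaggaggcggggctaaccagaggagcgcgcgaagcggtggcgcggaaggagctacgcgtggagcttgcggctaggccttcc

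Several transcripts of stromal and matrix-producing cells were lower in SCI+FES. Of 19 detected mesenchymal, osteoblast and matrix genes, 8 were lower and 1 higher, beside 2.42% and 1.74% of all detected genes. The median was -0.93. It was -0.57 relative to the median gene with the common median, -0.18 without the detection filter, and -0.56 with genes not detected in 1 pool at their bound. Col1a2, a chain of type I collagen, read 8.58 and 8.42 in SCI+FES and 11.06 and 10.79 in sham, 5.36-fold lower. Its partner Col1a1 was near the detection limit in sham (7.00 and 7.09) and not detected in SCI+FES. The proteoglycan lumican (Lum) was lower by -1.82 ± 0.14, Fstl1 by -1.59 ± 0.15 and the gap junction gene Gja1 by -1.22 ± 0.14, and Col3a1, not detected in SCI+FES, at least 1.80-fold. Fibronectin (Fn1), which macrophages also make, was the exception, at 11.47 and 11.40 against 9.62 and 9.71, 3.41-fold higher. The summed intensity of the 37 matched genes was 8112 and 7977 on the SCI+FES arrays and 10086 and 9826 on the sham arrays, with 12 and 12 against 19 and 21 detected. Of the 5 defining stromal markers, Col1a1, Col3a1 and Dcn were not detected in SCI+FES, and all 5 were detected in sham. The part of stromal cells in the other results was not tested.

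A few red cell and iron genes were lower, 2 of 5 and 2 of 15 detected, beside 2.42% of all detected genes. So few calls describe these genes and not their lists. Hemoglobin alpha (Hba-a2), 1 of 2 lower among 5 detected erythroid genes, read 9.88 and 10.08 against 11.42 and 11.50, 2.79-fold lower, and Hbb was lower by -1.32 ± 0.05, while Alas2 and Slc4a1, which define erythroid cells, were not detected on any of the 4 arrays. Globin genes are near-identical copies and are given as uncertain. Slc40a1 (ferroportin), the iron exporter, read 9.18 and 9.17 against 11.51 and 11.45, 4.94-fold lower, and heme oxygenase Hmox1, which releases iron from heme, was lower by -1.29 ± 0.06 (-0.94 on the authors' rescaled values). These were 2 lower of 15 detected metallothionein, heme and iron genes, with 0 higher and a median of -0.33. Matrix proteases had 1 gene in each direction among 9 detected: the macrophage elastase Mmp12 was 3.29-fold lower, and Adam15 was higher by 1.36 ± 0.22. Gpx3, an extracellular glutathione peroxidase, was the single higher gene of the antioxidant list (19 detected), at 1.26 ± 0.06. Mgll, a monoglyceride lipase, was that of the adipocyte list (16 detected), at 1.05 ± 0.02. With 1.74% higher and 2.42% lower among all detected genes, such single calls describe the gene and not its list. None of the 37 respiratory chain subunits, 26 hypoxia and glycolysis genes or 17 sterol synthesis genes detected was past 2-fold, with medians of 0.004, 0.24 and 0.10.

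Several of the largest differences belonged to no list. LOC684972, a predicted gene with no annotated function in the files, read 8.11 and 7.82 in SCI+FES and 12.17 and 11.94 in sham, 17.0-fold lower. Ddx60, a helicase that is also interferon-inducible, was 7.38-fold lower. The predicted Ly49-like receptors RGD1561306 and LOC502907 were lower, the first at least 4.06-fold because SCI+FES did not detect it and the second 5.12-fold, and as members of a multigene family they are uncertain. P2ry14, a receptor for UDP-sugars, was 4.52-fold lower. On the higher side, Mcemp1, a membrane protein of mast cells and other myeloid cells, was 7.36-fold higher and the mitochondrial ribosomal protein gene Mrpl17 at least 5.53-fold, at 9.40 and 9.40 with neither sham array detecting it. The neuropeptide gene galanin (Gal) was 4.87-fold higher and RGD1561730, a predicted cell surface receptor, 5.14-fold higher.

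The osteoclast pool of injured rats without stimulation (SCI), whose label gives no culture day, was the third osteoclast group. Its sample identifier shares a number with that of the SCI+FES osteoclast pool and differs by a letter, R against L, so how independent these pools are is not known. Both comparisons use the same sham arrays, so only their values are set side by side, without a count of shared signs. Type I interferon genes had a median of -0.94 for SCI+FES minus sham and -0.71 for SCI minus sham. MHC class II genes had 1.05 and 0.70, cell cycle genes 0.59 and 0.47, amino acid stress genes -0.77 and -0.59, and mesenchymal genes -0.93 and -0.67. For eosinophil, mast cell and basophil genes the medians were 0.82 and 0.00, for T and NK cell markers 0.51 and 0.08, and for neutrophil genes 0.49 and -0.11. All these medians cover genes detected in SCI+FES or sham, so genes detected in SCI alone do not enter. In these last lists, at least 8 of 12, 7 of 20 and 4 of 18 members were not detected in the dimmer pool. With such genes at their bound, the SCI+FES medians were 0.51, 0.28 and 0.28. Class II and mesenchymal genes had 2 of 10 and 7 of 19 such members. With those at their bound, the SCI+FES medians were 0.74 and -0.56, beside SCI medians of 0.70 and -0.67. No bounds were applied to the SCI medians. Gaps between the SCI+FES and SCI medians of these 5 lists are thus partly built in.

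Among single genes, S100a8 read 9.79 and 9.87 in the SCI pool, 0.52 above sham, where SCI+FES was 2.69 above sham. Pglyrp1, not detected in sham, read 7.03 and 7.18 in SCI and 9.21 and 9.27 in SCI+FES. Prg2 read 7.45 and 7.46 in the SCI pool, below the sham arrays, and 2.25 above sham in SCI+FES. In all 3 genes the SCI+FES arrays lay above the arrays of both other pools. Il1r2 read 8.25 and 8.12 in SCI, between the other pools. In Mx1 the SCI arrays read 13.12 and 13.18, and in Cxcl10 11.93 and 11.70, near the SCI+FES arrays and below sham. Fcnb at 7.79 and 7.65, Col1a2 at 8.68 and 8.66 and LOC684972 at 8.23 and 8.41 in SCI lay near SCI+FES likewise. No pool of stimulated rats without injury was analysed here, so an effect of FES by itself cannot be given.

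**Figure D4:**
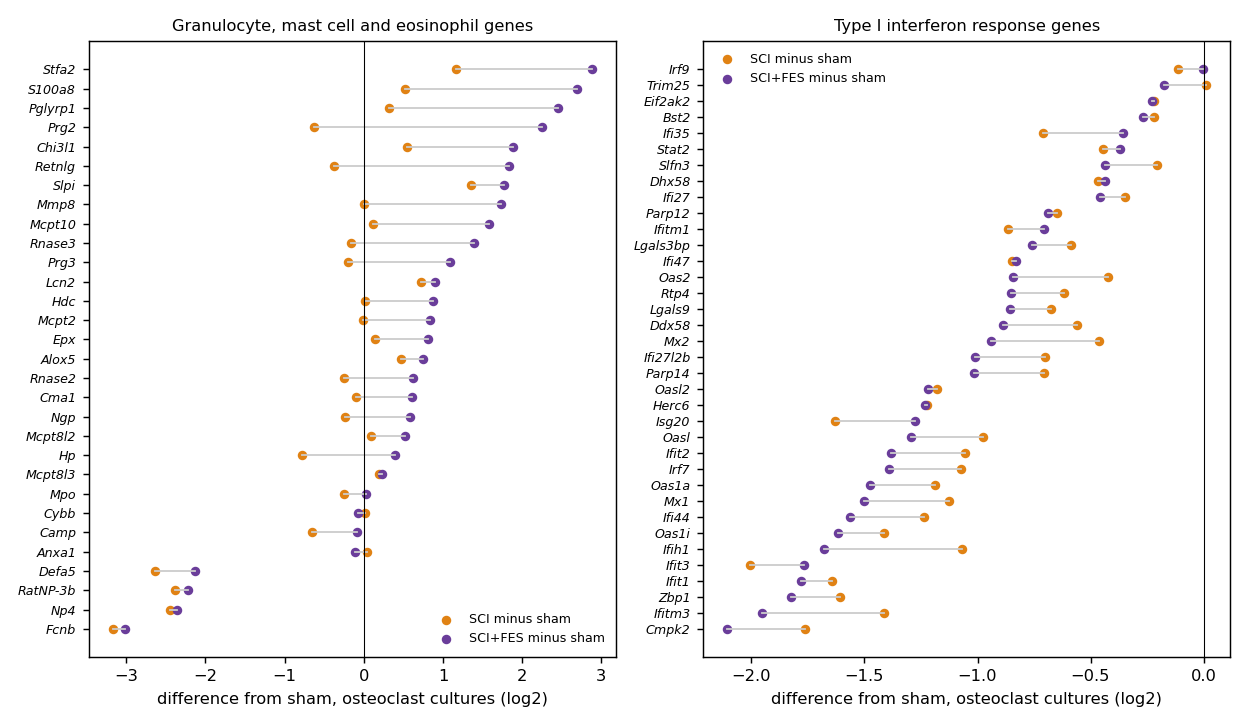
For each gene shown on the y axis, the x axis gives the log2 difference from the sham osteoclast pool of the SCI pool (orange) and of the SCI+FES pool (purple), which share the sham arrays. In the granulocyte, mast cell and eosinophil panel S100a8 and Prg2 lie at 2.69 and 2.25 for SCI+FES and at 0.52 and -0.63 for SCI, and the defensins and Fcnb are low in both. Where a pool did not detect a gene, as sham for Pglyrp1, the point is a fitted difference and no bound. In the interferon panel both sets of points lie mostly below 0.

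The same contrast in osteoblast cultures, which are marrow cultures grown to bone-forming cells and labelled day 10, was set beside these values. There 360 of 8423 detected genes were higher (4.27%) and 277 lower (3.29%). Of the 133 genes higher in osteoclast cultures, 46.6% were also higher in osteoblast cultures, which is 17.2% of the osteoblast list. Of the 185 lower genes, 12.4% were also lower there, which is 8.3% of the osteoblast list. Opposite calls in osteoblast cultures were found for 21 of the lower and 6 of the higher genes. The sham pools of both cultures carry the same number in their labels, as do the SCI+FES pools, and may come from the same animals.

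The genes higher in both cultures included MHC class II and replication genes. RT1-Ba was at 2.58 in osteoclast and 1.76 in osteoblast cultures, and Mcm6 at 1.63 and 1.77. Ubd was detected in neither sham pool, at least 4.59-fold higher in osteoclast and at least 16.6-fold in osteoblast cultures. Slc40a1 was lower in both, at -2.31 and -1.67. Several interferon-inducible and chemokine genes had opposite signs: Cxcl10 was at -1.65 in osteoclast and 3.77 in osteoblast cultures, Cmpk2 at -2.11 and 1.71, and Ccl4 at -2.24 and 2.25. In each of them the arrays of the pools did not overlap in either culture, and the difference between cultures was not tested, with 1 pool per group. Other interferon-inducible genes kept their sign: Ddx60 was lower in both, at -2.88 and -1.02, and Ifitm3 stood at -1.96 and -0.26. S100a8, Fcnb and LOC684972 did not pass the detection filter in the osteoblast pools.

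**Figure D5:**
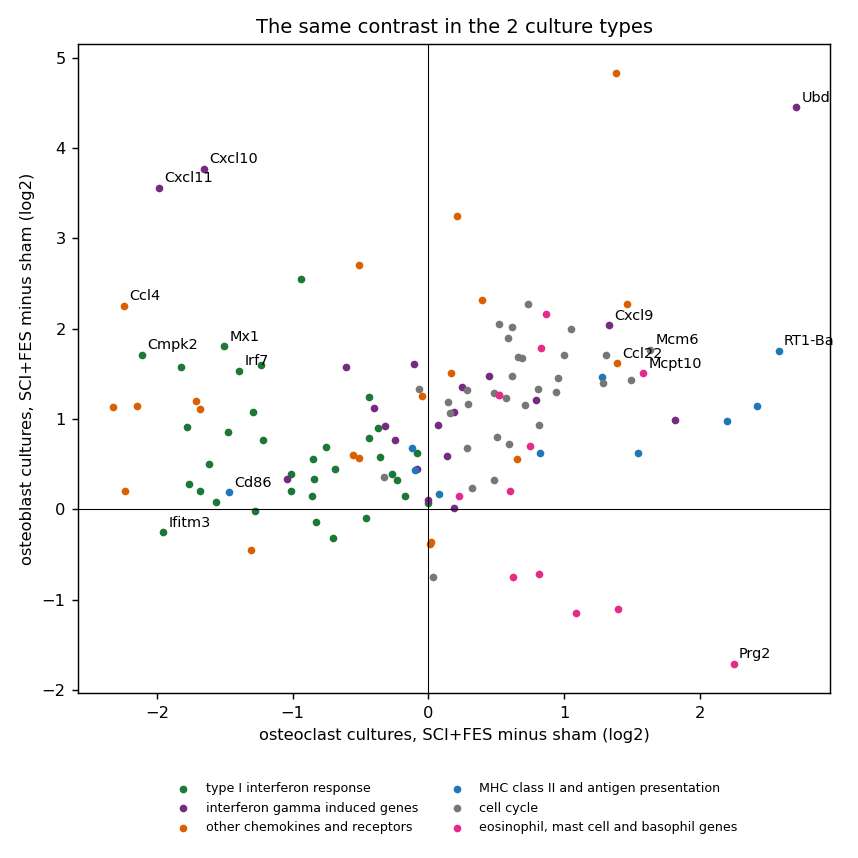
Each point is a gene detected in both culture types, with the SCI+FES minus sham difference in log2 intensity in osteoclast cultures on the x axis and in osteoblast cultures on the y axis, coloured by list. Cell cycle and class II genes lie mainly in the upper right, Cxcl10, Cxcl11, Ccl4 and Mx1 in the upper left, and Prg2 in the lower right.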

How the data were processed

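RNA of osteoclast and osteoblast cultures was measured on 12 Illumina arrays of 1 chip, with biotinylated cRNA per the labels. Per the file headers, the authors deposited for 22523 probes the intensity on each array and its detection p-value. Of the deposited intensity values 26.8% to 30.4% lay below 0, so a background had been subtracted. The software that did so is not given in the sources used here. Values in the authors' series matrix are a straight-line rescaling of these intensities on each array (r = 1, slopes of 0.731 to 1.42, column medians of 13.8 to 19.1). Its scale and direction follow from that match, while the rule behind the slopes stays unknown.

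From the deposited intensity, limma 3.58.1 in R 4.3.3 applied normexp (offset 50), made the 12 arrays' distributions equal by quantiles and took log2. Tables and figures used Python 3.11.15 with numpy 2.4.6, pandas 2.3.3 and matplotlib 3.10.9. Symbols in the file were matched to RefSeq: 10291 probes had a current symbol, 2431 were updated, 9684 kept the file's symbol and 117 had none. The brightest probe represented each of 818 genes with several. Duplicates of 1 pool allow no test, so a size rule was used: pool means 2-fold or more apart, no overlap of arrays between pools, and a detection p no higher than 0.01 on both duplicates of either pool. Where a pool detected a gene on neither array, the fold is a lower bound, taken on each array against its lowest detected level, or the probe's own level where higher. The size rule uses the fitted difference and not the bound, so some genes counted as higher or lower have a bound under 2-fold. The number of pools limits the precision.

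Genes are named where they were among the 15 largest differences in either direction, among up to 6 members past the rule in a list, or set out by name. The comparison, the 29 gene lists and the naming rule were chosen with earlier results of these data known, and the lists support nothing by themselves. Promoters are RefSeq sequences on GRCr8. Alternatives covered the offset, background correction, normalization, the authors' matrix values, detection filter, probe choice, fold and each array left out. A gene left out of the text and of the plots by gene name is not reported here.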

Additional observations from a re-analysis of the deposited data

Results flagged for a closer look

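Each gene here passed the 2-fold rule in osteoclast and in osteoblast cultures in opposite directions, with no overlap of arrays, when SCI+FES was set against sham. The difference between the cultures was not tested, since each group is 1 pool, and osteoblast cultures were labelled day 10 and osteoclast cultures day 3. Values are the osteoclast difference minus the osteoblast difference in log2 units. Among interferon-inducible genes the value was -5.55 for Cxcl11, -5.42 for Cxcl10, -3.82 for Cmpk2, -3.40 for Zbp1, -3.31 for Mx1 and -2.93 for Irf7. Among the other chemokines it was -4.50 for Ccl4, -3.46 for Cxcl1, -3.29 for Cxcl2, -2.91 for Ccl3 and -2.79 for Cxcl13. Ptgs2 gave -4.21, and the immediate early and mRNA decay genes Zfp36 and Fos gave -2.52 and -2.47. These 14 genes were lower in osteoclast and higher in osteoblast cultures of the SCI+FES rats. Eosinophil granule genes ran the other way, with 3.96 for Prg2, 2.504 for Rnase3 and 2.23 for Prg3. Rnase3 was not detected in sham osteoclast cultures, so its value is a fitted difference and no bound, and the osteoclast level is at least 2.32-fold higher.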

How the results depend on the processing

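Beside 133 higher and 185 lower genes, the counts were 201 and 273 with a normexp offset of 16, 325 and 407 with log2 of signal plus 16, 316 and 384 with limma's neqc (offset 16), 49 and 685 with a common median, 183 and 213 on the authors' matrix values, 502 and 623 at 1.5-fold, and 37 and 49 at 3-fold. Offsets under 50 compress dim genes less by construction. Quantile normalization over the 6 osteoclast arrays gave 131 and 184, and the other settings of filter and probe gave 133 higher and 184 to 186 lower. With arrays left out, 135 to 147 were higher and 180 to 195 lower. Of 100 named genes past the rule, 77 stayed past it under all 15 settings at 2-fold, and 0 changed sign. With the common median, which shifts the median gene by -0.41, 15 genes were lost, all of them higher genes. These were C1qa, Cxcl9, RT1-DOb, Mcm2, Mcm3, Mcm7, Aurkb, Cdk1, Cd3d, Rnase3, Prg3, Ccl22, Mgll, Gpx3 and Adam15. List medians changed sign with the common median for macrophage (-0.18), endothelial (-0.08), sterol (-0.40), antioxidant (-0.43) and hypoxia genes (-0.11), which relative to the median gene of that scaling stood at 0.22, 0.32, 0.001, -0.027 and 0.295. They also changed sign on the authors' matrix values for adipocyte (0.039) and lysosomal genes (0.25); without a detection filter for erythroid (0.013) and smooth muscle genes (-0.029), the latter with 1 detected member; and for smooth muscle genes also with arrays left out, where their median ran from -0.091 (array 1 of each pool) to 0.634 (SCI+FES array 2), at -0.001 without sham array 1. The cause of the changes outside the common median was not tested. No paired analysis was possible because the duplicates are arrays of 1 RNA pool per group and no comparison rests on a test. Signal over background limits the dim genes: 23 higher genes were not detected in sham and 25 lower genes not in SCI+FES, and a fold of these genes is a lower bound.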
